A study of Mus musculus with 4 samples.

Results

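The mast cell genes described here are a set of 7, namely Tpsb2, Cma1, Cpa3, Kit, Hdc, Fcer1a and Ms4a2. They were chosen by gene symbol, with their signal on these same arrays already known, so their levels and their spread between mice are given as a description. All 7 were measured, by 11 of the 12422 probe sets that are not array controls. Cma1 was read by 3 probe sets, Tpsb2 and Cpa3 by 2 each, and the other 4 genes by 1 each. The samples were seminal vesicles of 4 mice of strain C57Bl/6J, wild type for the homeobox gene Nkx3.1 (Nkx3.1 +/+) and 15 months old, with total RNA of each gland on its own Affymetrix Mu74AV2 array. The labels name no treatment, every array belonged to this single group, and the mice are called 1 to 4 in the order of the series. In whole-gland RNA, fewer mast cells and less RNA per mast cell cannot be told apart. The labels name the tissue. Of the gland's secretory genes listed for this report, 6 of 7 measured were above the background range, against 30.2% of all genes.

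Mast cells are tissue-resident immune cells that store preformed mediators in granules and release them when antigen cross-links IgE on their surface. Their granules hold tryptases, chymases and a carboxypeptidase bound to heparin, together with histamine, and their survival depends on the receptor tyrosine kinase Kit and its ligand, stem cell factor. In connective tissue they lie around vessels, nerves and smooth muscle. Mouse connective tissue mast cells are known for the tryptase Tpsb2, the chymase Cma1 and the carboxypeptidase Cpa3, whereas mucosal mast cells are known for Mcpt1 and Mcpt2.

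The values are log2 expression values made with RMA, so a difference of 1 is a 2-fold change. Each array's median lay between 4.95 and 4.98. The arrays were alike, with Pearson's r of 0.992 to 0.994 in the 6 possible pairings, taken over probe sets, which are not independent of each other. Background was judged from 122 probe sets that read 102 genes typical of organs such as liver, pancreas, brain and eye. A probe set counted as above the background range when it passed the 90th percentile of these on each of the 4 arrays. The limits of mice 1 to 4 were 6.07, 6.01, 6.04 and 6.14. Of the other-organ genes themselves, 12 of 102 had a probe set that met this rule, and the brightest of these genes had a mean of 8.39. Probe sets differ in how well they bind, so values were compared between mice within a probe set. Where genes of a list are named as brightest, this ranks the signal of their probe sets and not the amount of transcript. A value under the limit does not show that a gene is silent.

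RefSeq promoter windows, each of 250 bases before and 50 bases after a transcription start on build GRCm38.p6, were matched for 6 of the 7 genes. The windows of Cpa3 and Cma1 are printed because these genes held the probe sets with the widest range between mice. Capitals mark the GATA-type motif AGATAA, searched on both strands, as a form of the sequence bound by GATA factors such as Gata2, a regulator of mast cell genes. CATGTG and CACGTG, forms of the E-box bound by the mast cell factor Mitf, were searched in the same way and are not in these windows.
Cpa3, chr3:20242132-20242431, minus strand: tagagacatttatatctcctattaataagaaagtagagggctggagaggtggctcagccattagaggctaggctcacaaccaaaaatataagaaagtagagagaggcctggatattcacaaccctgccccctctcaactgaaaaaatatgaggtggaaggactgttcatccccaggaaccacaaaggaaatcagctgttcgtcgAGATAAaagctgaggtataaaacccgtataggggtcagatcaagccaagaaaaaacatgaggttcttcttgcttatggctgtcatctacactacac
Cma1, chr14:55944626-55944925, minus strand: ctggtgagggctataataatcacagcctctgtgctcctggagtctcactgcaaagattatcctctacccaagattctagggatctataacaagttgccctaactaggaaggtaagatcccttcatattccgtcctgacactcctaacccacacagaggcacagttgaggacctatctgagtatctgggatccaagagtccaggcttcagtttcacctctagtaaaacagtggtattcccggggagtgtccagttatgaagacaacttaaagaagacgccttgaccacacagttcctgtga

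The Cpa3 window held AGATAA on its own strand, starting 46 bases before the transcription start, and the Cma1 window did not hold it. Other forms of the GATA sequence were not searched, so the Cma1 window is not shown to lack them. Among the 6 genes with a window, 3 held AGATAA, namely Cpa3, Fcer1a and Ms4a2, and the Ms4a2 window held it 3 times. Of 32851 windows of this length in the RefSeq table, 11.2% held AGATAA. The E-box form CATGTG was in the Fcer1a window alone and in 14.2% of all windows, and CACGTG was in 0 windows of these genes and in 7.15% of all. These matches describe the letters of the windows and are not binding sites shown by these data.

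Of the granule proteases among the members, only Tpsb2 had a probe set above the limit in every mouse. Tpsb2 encodes the tryptase known as mouse mast cell protease 6, which is stored as a heparin-bound tetramer. Its probe set 93622_at had 8.06, 7.69, 8.05 and 7.81 in mice 1, 2, 3 and 4, a mean of 7.90 ± 0.18 (SD, n = 4). Mice 1 and 3 were nearly equal and highest, and mouse 2 was lowest. The other Tpsb2 probe set, 92711_at, was designed from a different sequence record and had 5.20, 5.37, 5.17 and 5.38, with a mean of 5.28 ± 0.11. It was under the limit on all 4 arrays, and its order was the opposite one, with mice 2 and 4 highest. The 2 probe sets of Tpsb2 disagreed both on whether the gene exceeds the background range and on which mice are high.

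Cma1, which encodes the chymase mouse mast cell protease 5, was the member with the widest range. Probe set 102407_at had 6.17, 5.38, 6.10 and 4.85 in mice 1 to 4, a mean of 5.63 ± 0.63 (SD, n = 4). It exceeded the limit in mice 1 and 3 and not in mice 2 and 4. Mice 1 and 4 lay 1.32 log2 units apart, a difference whose size is uncertain because mouse 4 was under the limit. Probe set 102408_g_at, designed from the same record, had 5.81, 5.49, 5.89 and 5.58, with a mean of 5.69 ± 0.19. It again placed mice 1 and 3 above mice 2 and 4, within a range of 0.40, and stayed under the limit on all 4 arrays. The last one, 102406_at, had 3.16, 2.95, 3.09 and 3.01, in the same order of mice 1 and 3 above mice 4 and 2.

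Cpa3 encodes mast cell carboxypeptidase A, which trims the ends of peptides and proteins in the granule. Probe set 102351_at had 4.09, 3.19, 3.76 and 2.98 in mice 1 to 4, a mean of 3.51 ± 0.51 (SD, n = 4). Mice 1 and 3 were higher than mice 2 and 4, over a range of 1.12 log2 units, but every value was under the limit, so no fold is given. Probe set 162348_r_at had 5.85, 5.53, 5.87 and 5.68, with a mean of 5.73 ± 0.16. It had the same mice on top, over a range of 0.35, and was likewise under the limit on all 4 arrays.

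**Figure D1:**
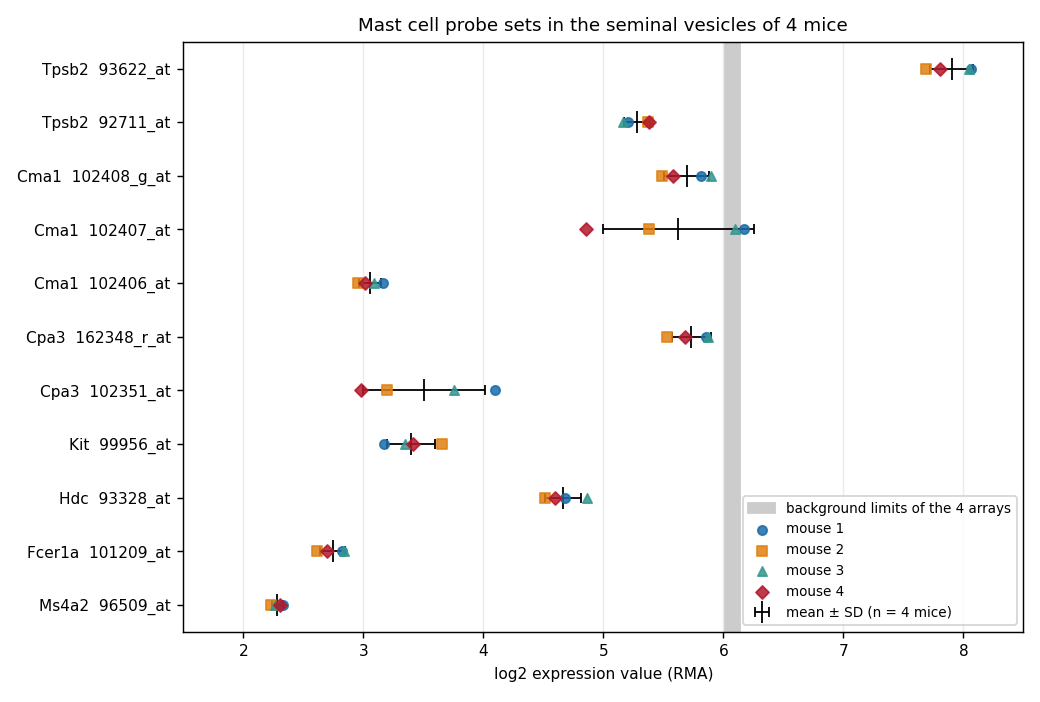
Log2 expression value (horizontal axis) of each of the 11 mast cell probe sets (rows, with gene and probe set), by mouse. Symbols are mice 1 to 4, the black tick and bar are the mean ± SD (n = 4), and the grey band spans the background limits of the 4 arrays (6.01 to 6.14). Tpsb2 93622_at alone lies above the band in all mice, and Cma1 102407_at crosses it.

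Hdc, the histidine decarboxylase that makes histamine, had 4.68, 4.51, 4.86 and 4.60 in mice 1 to 4, a mean of 4.66 ± 0.15 (SD, n = 4). Mouse 3 was highest and mouse 2 lowest, and every value was under the limit.

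The chains of the IgE receptor were under the limit in every mouse. Fcer1a, the IgE-binding alpha chain, had 2.82, 2.62, 2.84 and 2.70 in mice 1 to 4, a mean of 2.74 ± 0.11 (SD, n = 4). Ms4a2, the beta chain that amplifies the receptor's signal, had 2.33, 2.23, 2.27 and 2.31, with a mean of 2.28 ± 0.04. Fcer1a had mice 3 and 1 highest within a range of 0.23, while the Ms4a2 values lay within 0.10 of each other.

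Kit, the receptor for stem cell factor, is also used by melanocytes, germ cells and interstitial cells. Its probe set had 3.17, 3.65, 3.35 and 3.42 in mice 1 to 4, a mean of 3.40 ± 0.20 (SD, n = 4), all under the limit. Mouse 2 was highest and mouse 1 lowest, so Kit ran against the order of Cma1 and Cpa3.

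Across the members, 1 of 11 probe sets (Tpsb2 93622_at) and thus 1 of 7 genes passed the limit in every mouse, where 24.7% of all 12422 probe sets did and 30.2% of all 8251 genes had such a probe set. Of the member genes, only Tpsb2 thus had a probe set above the limit in all 4 mice, and its other probe set, 92711_at, was under it throughout. Cma1 passed the limit in mice 1 and 3 by 102407_at alone, while 102408_g_at and 102406_at were under it on all 4 arrays. A looser limit, the 75th percentile, gave a count of 4 of 11, with 46.9% of all probe sets passing. Each array's median as the limit gave 4 of 11, with 47.0% of all passing.

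The spread of each probe set between the mice was set against the variance that limma's model assigns to a probe set of like signal, with p-values adjusted over all 12422 probe sets. By this test 0 of 11 member probe sets were called variable at an adjusted p of 0.05, and 0.282% of all probe sets were called. At an unadjusted p under 0.05 stood 2 of the 11, against 5.44% of all. These were Cma1 102407_at (SD 0.63, 4.95 times the model's SD, adjusted p = 0.0657, limma) and Cpa3 102351_at (SD 0.51, 4.23 times, adjusted p = 0.14, limma). Of all probe sets, 99.7% had a lower SD than this Cma1 probe set and 99.5% a lower SD than this Cpa3 probe set. Without mouse 3 the Cma1 probe set was called (SD 0.66, adjusted p = 0.0392, limma), and without mouse 4 its adjusted p was 0.418 (limma), at an SD of 0.44. The other 9 member probe sets had SDs from 0.04 to 0.20 and adjusted p-values from 0.981 to 0.998 (limma). The median SD was 0.16 over the members and 0.11 over all probe sets.

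**Figure D2:**
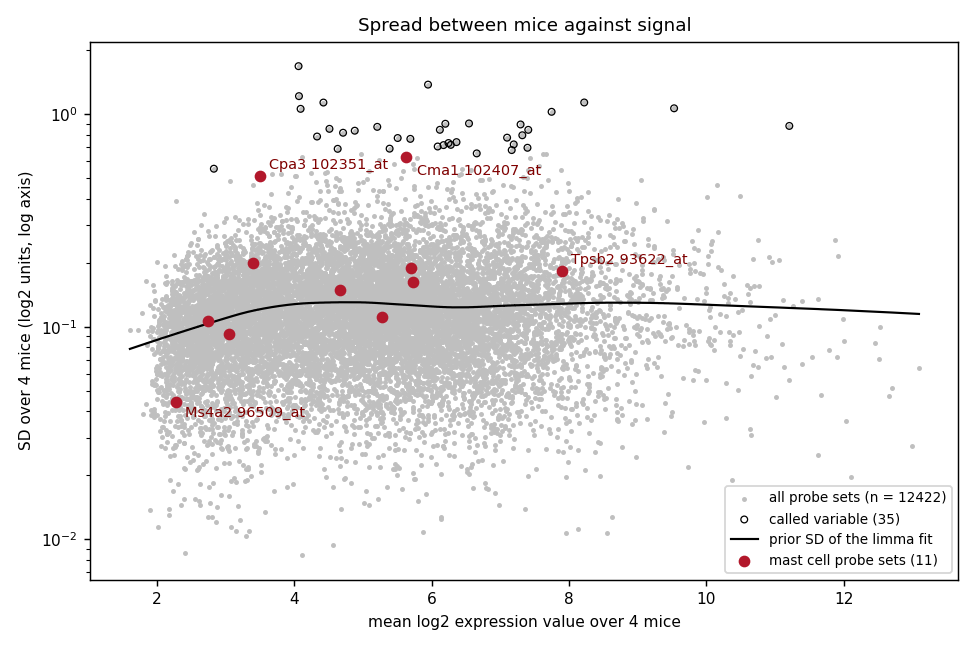
SD over 4 mice (vertical, log axis, log2 units) against mean log2 value (horizontal) for 12422 probe sets in grey, with the 35 called variable circled, the model's prior SD as a line and the 11 mast cell probe sets in red. Cma1 102407_at (0.63) and Cpa3 102351_at (0.51) lie near the upper edge of the cloud, and the other 9 lie within it.

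Most member probe sets, though not all, shared an order of the mice. In 8 of 11 probe sets the highest 2 values were those of mice 1 and 3, an order held by 19.3% of all probe sets. The exceptions were Tpsb2 92711_at, Kit and Ms4a2. This order was noticed in the values themselves, the probe sets of a gene are not independent, and no test was made of it. In alternatives chosen after seeing the data, the count was also 8 with the arrays shifted to the same median and with quantile normalization, where 14.5% and 17.4% of all probe sets had this order. Taking the brightest probe set of each gene, the 7 genes deviated from their own 4-mouse means by an average of 0.04, -0.10, 0.10 and -0.05 in mice 1 to 4. These averages moved with single mice: without mouse 2 that of mouse 1 was 0.01 and that of mouse 4 was -0.08, and without mouse 3 they were 0.08 and -0.01. That of mouse 2 was -0.065 without mouse 3. In the same repeats mouse 3 ranged from 0.07 to 0.12. For all 8251 genes the same means lay between -0.01 and 0.01. The order was also seen in some other lists and was rare in others. By the brightest probe set, 5 of 7 member genes had mice 1 and 3 highest, against 18.9% of all genes. So had 8 of 11 smooth muscle genes, 6 of 11 other mast cell granule genes and 5 of 11 T and NK cell genes. The same held for 0 of 10 B and plasma cell genes, 0 of 9 endothelial, 1 of 12 neutrophil and 1 of 11 luminal epithelial genes.

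**Figure D3:**
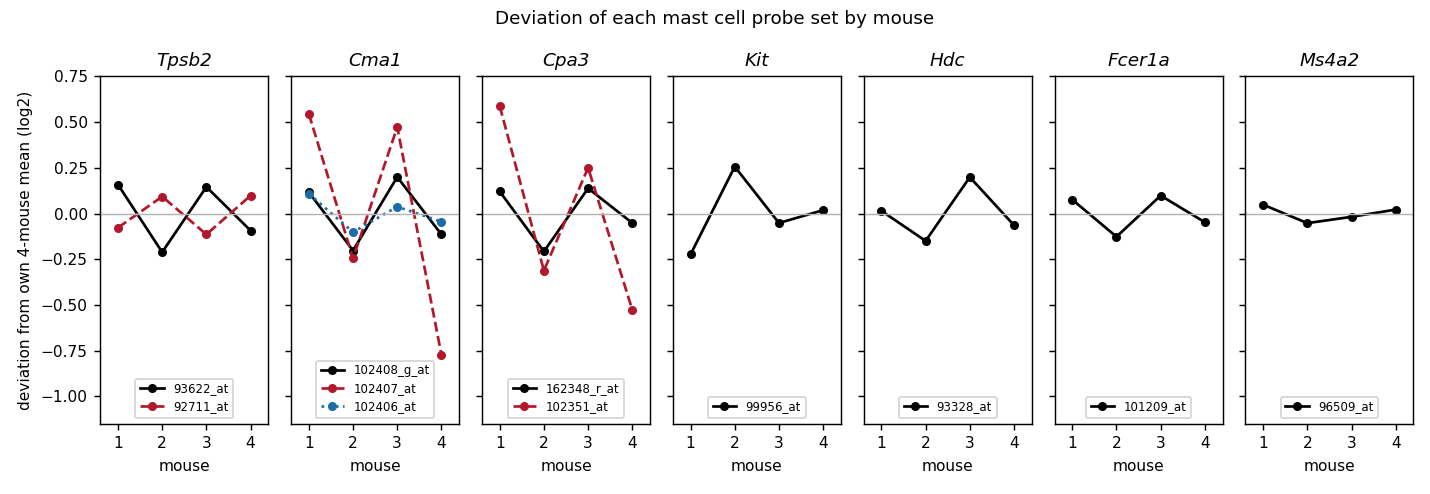
Deviation of each mast cell probe set from its own 4-mouse mean (vertical, log2) by mouse (horizontal), 1 panel per gene. Lines join the values of a probe set only to tell probe sets apart. All probe sets of Cma1 and Cpa3 lie above 0 in mice 1 and 3 and below 0 in mice 2 and 4, whereas Tpsb2 92711_at shows the reverse and Kit is highest in mouse 2.

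Features of the arrays and of other cell types moved between the mice as well. The beta-actin control probe sets read RNA integrity as the 3' signal less the 5' signal. This was 1.08, 0.82, 1.02 and 0.98 in mice 1 to 4, the order of Tpsb2 93622_at. The same reading of the Gapdh control was -0.1158, -0.1468, -0.1505 and -0.1344, a different order with mouse 3 lowest. Cma1 102407_at and Cpa3 102351_at differed from Tpsb2 93622_at in ranking the mice 1, 3, 2 and 4. The array medians were 4.985, 4.947, 4.981 and 4.961 in mice 1 to 4, which is also the order of Tpsb2 93622_at. Of 11 measured smooth muscle genes 10 were above the background range, against 30.2% of all genes. These smooth muscle genes had mean deviations of 0.31, -0.17, -0.02 and -0.12. Their brightest members were the contractile genes Tagln (11.09, 10.54, 10.83 and 10.57), Actg2 (10.55, 10.03, 9.91 and 10.18) and Cnn1 (10.61, 9.73, 9.88 and 9.81), all highest in mouse 1. T and NK cell genes, with 4 of 11 above the range against 30.2% of all genes, had 0.03, -0.07, 0.06 and -0.01. This ranks the mice 3, 1, 4 and 2 as the members' averages do. The 5 genes of prostaglandin and leukotriene synthesis had the same ranking, with 0.03, -0.09, 0.05 and 0.01. Macrophage and dendritic cell genes, with 8 of 19 above the range against 30.2% of all genes, had -0.03, 0.06, 0.16 and -0.19. Their brightest members, the antigen presentation genes Cd74 (9.08, 9.47, 9.58 and 8.81), H2-Eb1 (7.89, 8.40, 8.43 and 8.05) and H2-Aa (7.90, 8.25, 8.29 and 7.70), were all highest in mouse 3. Of B and plasma cell genes 3 of 10 were called variable by any of their probe sets (Ighm, Igha and Jchain). Of all probe sets 0.282% were called, and by the brightest probe set 16 of all 8251 genes were. With only the 3389 probe sets whose mean passed the mean limit, 0 probe sets were called. The B and plasma cell list had mean deviations of -0.07, 0.24, 0.16 and -0.34. Genes of other organs, mostly dim, had 0.03, -0.07, -0.0006 and 0.04, so mouse 2 was lowest there too. The part of RNA integrity, of muscle content and of other cell types in the order of the mast cell genes was not tested.

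**Figure D4:**
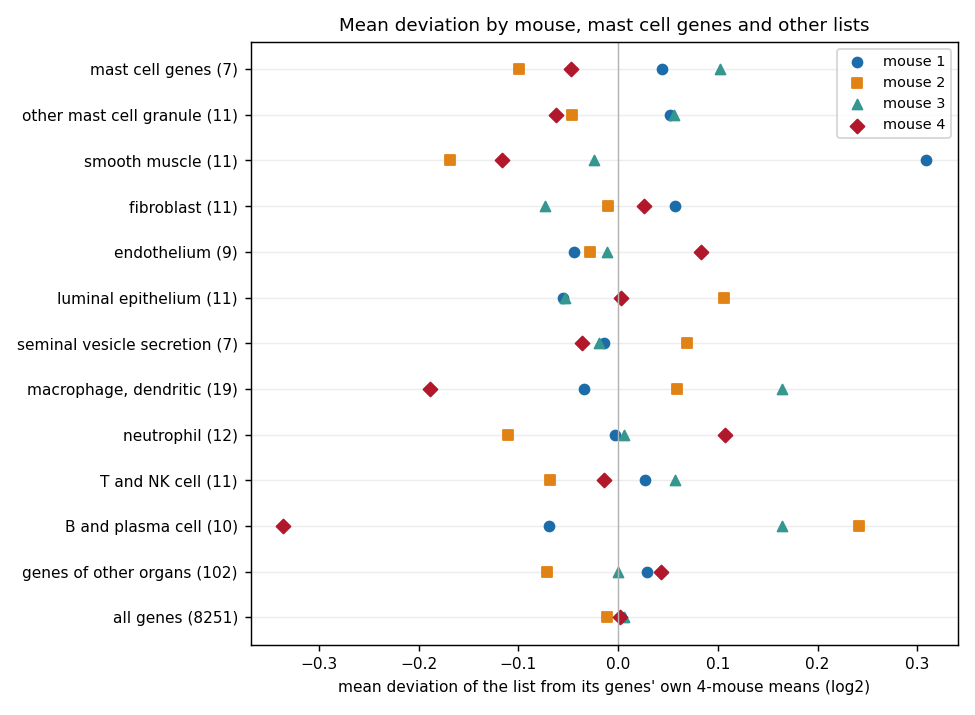
Mean deviation of each gene list from its genes' own 4-mouse means (horizontal, log2), by mouse, with the number of measured genes in brackets. Mast cell genes spread from -0.10 to 0.10 with mice 3 and 1 on the right, as do T and NK cell genes over a narrower span, smooth muscle genes have mouse 1 alone on the right at 0.31, and all genes together lie close to 0.

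Other granule genes of mast cells were above the background range in 1 of 11 measured cases, against 30.2% of all genes, and 0 were called variable by limma, with 1 at an unadjusted p under 0.05. The brightest was Cd63, a granule membrane tetraspanin that many cell types express, at 7.43, 7.82, 7.71 and 7.61 in mice 1 to 4, with mouse 1 lowest. Next came Ndst2, an enzyme that sulphates heparin, with 5.52 ± 0.08 (SD, n = 4), and the mucosal protease Mcpt1 with 5.05 ± 0.11, both under the limit. Among genes picked after their values were seen, Tpsab1, a tryptase gene related to Tpsb2 and listed by RefSeq as a transcribed pseudogene in this strain, had 4.50, 3.96, 4.26 and 3.84. Its SD was 0.30 (adjusted p = 0.757, limma), with mice 1 and 3 highest. That order held for 6 of the 11 genes of this list and not for Cd63, Ndst2, Srgn or the proteases Mcpt2 and Ctsg. The connective tissue chymase Mcpt4 had 2.31 ± 0.06 and Srgn, the core protein that carries heparin, 3.19 ± 0.12, neither above the limit. Mcpt4, Srgn, Mcpt2 and Ctsg were also named after their values were seen. Tryptases and chymases are families of like sequence, so their probe sets can read related transcripts.

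Genes of mast cell development were above the background range in 6 of 21 measured cases, a share near the 30.2% of all genes, and 0 were called variable by limma, with 0 at an unadjusted p under 0.05. Gata2, a transcription factor of mast cells and of other blood, endothelial and urogenital cells, had 10.26 ± 0.16 (SD, n = 4). Stat5a, which relays cytokine signals, had 8.32 ± 0.04, and the GATA cofactor Zfpm1 had 7.49 ± 0.09. Kitl, the gene of stem cell factor, had 4.94 ± 0.17 and Mitf had 3.38 ± 0.12, both under the limit and both named after their values were seen. In Gata2 mice 4 and 1 were highest, at 10.41 and 10.37, so its 2 highest values were not those of mice 1 and 3.

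Genes that carry the signal of the IgE receptor were above the range in 4 of 17 measured cases, against 30.2% of all genes, and 0 were called variable by limma, with 0 at an unadjusted p under 0.05. The 3 brightest were the adaptor Grb2 (6.93 ± 0.08, SD, n = 4), the GTPase Rac2 (6.88 ± 0.10) and the kinase Syk (6.76 ± 0.06), each shared with other cell types. Fcer1g, the gamma chain of the receptor, had 4.20 ± 0.15 and was named after its value was seen.

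Enzymes of prostaglandin and leukotriene synthesis were above the range in 1 of 5 measured cases, and receptors and substrates of mast cell mediators in 3 of 12, against 30.2% of all genes. In both lists 0 genes were called variable by limma, with 0 at an unadjusted p under 0.05. Of the enzymes, Lta4h, which makes leukotriene B4, had 7.13 ± 0.07 (SD, n = 4), while Ptges had 5.65 ± 0.05 and Ltc4s, which makes the leukotriene C4 released by mast cells, 5.29 ± 0.15. Of the targets, the sphingosine phosphate receptor gene S1pr2 had 6.27 ± 0.07, the angiotensinogen gene Agt 6.25 ± 0.11 and Aoc1, which degrades histamine, 6.12 ± 0.04. The histamine receptor genes Hrh1 (4.45 ± 0.14) and Hrh2 (4.91 ± 0.07), named after their values were seen, were under the limit.

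Markers of cells that could be taken for mast cells were mostly dim, as were the members themselves. Of basophil and eosinophil genes 0 of 6 were above the range, against 30.2% of all genes. The granule protein Prg2 had 5.39 ± 0.10 (SD, n = 4), the basophil protease Mcpt8 3.65 ± 0.17 and Prg3 3.39 ± 0.04. The mean level of that list was lowest in mouse 2, with mean deviations of -0.03, -0.09, 0.06 and 0.07 in mice 1 to 4. Of markers of melanocytes and germ cells, which also use Kit, 1 of 9 was above the range, against the same 30.2%. This was Sox10, a factor of melanocytes and Schwann cells, at 6.25 ± 0.14, while the melanosome genes Pmel (5.59 ± 0.12) and Dct (4.34 ± 0.13) were not above. In both lists 0 genes were called variable by limma, with 0 at an unadjusted p under 0.05.

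Genes most like Tpsb2 93622_at over the 4 mice were looked for among 373 probe sets of a single gene that were above the background range and had an SD of at least 0.2. Likeness was the Euclidean distance between deviations from the 4-mouse means, in log2 units. The nearest 5 were Slc3a2 (distance 0.05) and Slc7a5 (0.09), the subunits of a large neutral amino acid transporter, the histone gene H2bc22 (0.06), the creatine kinase gene Ckb (0.07) and Sel1l (0.12), which acts in the removal of misfolded proteins from the endoplasmic reticulum. Slc3a2 had 9.50, 9.05, 9.44 and 9.20 in mice 1 to 4 and Ckb had 8.64, 8.18, 8.57 and 8.36, each with mice 1 and 3 highest and mouse 2 lowest. All members were left out of the search by name. By the brightest probe set, the floor on SD left out further genes of the mast cell lists. Among them were Cd63, Gata2, Stat5a, Zfpm1, Grb2, Rac2, Syk and Lta4h. Of the other granule genes, all but Cd63 were left out as not above the background range. The search could not have returned these genes, so their absence from the nearest 5 says nothing about them. Lmo2 (SD 0.21), a development gene named after its value was seen, met both rules and was not among the nearest 5. The floor was also above the SD of 0.18 of Tpsb2 93622_at, so each gene returned had to vary more than this probe set. With 4 arrays, many genes can share a pattern.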

How the data were processed

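RNA of 4 seminal vesicles was measured on Affymetrix Mu74AV2 arrays. The authors deposited 1 log2 value for each probe set and mouse, and the submitters' processing notes name RMA. That method corrects background, gives arrays a common distribution and summarises probes robustly, which removes shifts common to an array and shrinks dim differences. The sources used here do not state its version or which arrays were normalized together, and the log2 scale was read from the values (1.47 to 13.2). The 66 control probe sets were left out of tests.

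Symbols came from the platform annotation. They were updated by gene ID through RefSeq (GRCm38.p6), with 10817 of 10833 single-gene probe sets matched, while 396 had several genes and 1193 none. The variance test was an upper-tail F test (3 residual df) against limma's robust, trended prior (8.06 df), adjusted by Benjamini-Hochberg over 12422 probe sets, and was tested on simulated data. A gene was represented by its brightest probe set in lists and was above background if any probe set was.

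Named genes were every member probe set, the 3 brightest genes of most lists described, and the 5 nearest in pattern. Of some lists only counts, mean deviations or called genes are given. Others are said to be picked. Members and lists were chosen with earlier results of these data known. Alternatives covered scaling, background limit, prior, filter and leaving out each mouse. The arrays' number limits precision, and labels do not say whether the mice shared a litter or batch. R 4.3.3, limma 3.58.1 and Python 3.11.15 were used.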

Additional observations from a re-analysis of the deposited data

Results flagged for a closer look

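Each of 51 probe sets was checked for a mouse far from the other 3, taken as a gap to its nearest neighbour which, as a share of the range of the group, exceeds Dixon's critical value for 4 samples. No mast cell member passed that value, and 2 of the 51 probe sets did, while about 1 in 20 groups does so by chance. Stat5a had 8.37 in mouse 3 against 8.29 to 8.30 in the others (gap 0.873 of the range), and Aoc1 had 6.19 in mouse 4 against 6.10 to 6.11 (gap 0.889 of the range). Both differences are under 0.1 log2 units.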

How the results depend on the processing

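Tpsb2 93622_at was above the background range with every limit, scaling and set of mice tried. The count of member probe sets above the limit was 4 of 11 with a 75th-percentile limit and 4 of 11 with each array's median as the limit. Of 89 repeats of the variance test over the member probe sets, 88 gave no call and 1 did, Cma1 102407_at without mouse 3. The count of member probe sets called thus ran from 0 to 1 when a mouse was left out. Over all probe sets 15 were called with a non-robust prior fit and 17 to 44 when a mouse was left out. Among the 3389 probe sets whose mean passed the mean limit, 0 were called by limma, with 186 at an unadjusted p under 0.05. That filter leaves 1 member, so it says nothing about the others. The mean deviation of the members kept its sign in each mouse in all 32 repeats but not its size. It ran from 0.01 to 0.08 in mouse 1, -0.11 to -0.065 in mouse 2, 0.07 to 0.12 in mouse 3 and -0.08 to -0.01 in mouse 4 when another mouse was left out. With members above the background range only, which leaves Tpsb2, it was 0.16 in mouse 1 and -0.21 in mouse 2. No paired analysis was possible because there is a single group. With 10 of 11 member probe sets not above the limit in every mouse, the sizes of their differences between mice are uncertain.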
